A study of Mus musculus with 3 samples.

Results

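miR-184 is the microRNA made from the mouse gene Mir184, and it was followed here in small RNA libraries of CD1 mice, an outbred stock, made from mature sperm, from adult testis and from the adult uterus. Its reads were those of 18 to 26 nt that matched the Mir184 hairpin of GENCODE M21 in full and in sense, which makes it 1 of 1174 annotated microRNA hairpin genes searched. Sperm gave 15058 such reads, testis 556 and uterus 108. The sperm came from the cauda epididymis, where sperm are stored after leaving the testis, and were kept in a detergent buffer that lyses somatic cells, whereas testis and uterus were whole organs made of many cell types. Each source had 1 library, and the sources used here do not say how many animals were behind it. There was thus no replicate check and no test between sources, and all intervals below (95%) describe counting error alone, since PCR copies of 1 molecule can be read more than once. miR-184 was selected on its read counts in these same libraries, so its levels and forms are given as a description.

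A microRNA starts as a hairpin. The enzymes Drosha and Dicer cut the hairpin down to a short duplex of its 5′ arm (5p) and 3′ arm (3p), and 1 strand is loaded into an Argonaute protein. The bases from position 2 to position 8 of the loaded strand, called the seed, pair with target messenger RNAs. miR-184 is best known from the corneal epithelium and the lens of the eye, and it has also been described in brain and in male germ cells of the mouse testis. The 3′ end of a loaded microRNA can be shortened by exonucleases or lengthened by terminal transferases that add U or A, while its 5′ end is usually fixed because a shift there moves the seed.

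In the assembly GRCm38 the hairpin lies on the minus strand of chromosome 9, from 89802260 to 89802328. It forms the only exon of the gene and overlaps no other annotated gene. The nearest one, the noncoding RNA gene 1700017I07Rik, lies 542 bases away on the other strand. The hairpin is shown first with both mature arms in capitals, and the arms follow with their seeds in capitals (RefSeq, GRCm38.p6), because every result below is about which of these bases were read.
Mir184 hairpin: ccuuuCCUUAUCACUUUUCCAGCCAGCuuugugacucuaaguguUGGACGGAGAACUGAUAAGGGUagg
mmu-miR-184-5p: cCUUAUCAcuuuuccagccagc
mmu-miR-184-3p: uGGACGGAgaacugauaagggu
Mature miR-184-3p lies at chr9:89802263-89802284 and mature miR-184-5p at chr9:89802302-89802323, both 22 nt long. Folded with RNAfold, the hairpin had a minimum free energy of -29.00 kcal/mol, and 17 bases of the 5p arm paired with the 3p arm. Each arm ended 2 bases past its partner, the overhang that Drosha and Dicer leave. The seed of miR-184-3p, GGACGGA, was found in 1 of the 1679 mature mouse microRNAs listed in the RefSeq table, miR-184-3p itself. None of its 15 distinct reads matched any other annotated gene among the 141767 transcripts searched, so its reads were not shared with another annotated RNA.

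Depth was 15690722 reads (sperm), 23783785 (testis) and 15876066 (uterus). Any microRNA hairpin was matched by 2.56% of the sperm reads, 0.799% of the testis reads and 66.2% of the uterus reads, all of 18 to 26 nt, so a level depends strongly on whether it is counted among hairpin reads or among all reads, and both are given. Reads under 24 nt were 8.05% of sperm, 1.45% of testis and 88.4% of uterus, and the sources used here do not state the size range selected for each library. Levels of the germ cell and X-linked testis lists are given as a description, since these lists were written with earlier results of these data known. All 4 listed germ cell arms (miR-34c-5p, miR-34b-5p, miR-449a-5p and miR-202-5p) were at least 4-fold higher in testis than in uterus on both scales. So were 59 of all 232 arms (25.4%) among hairpin reads and 25 (10.8%) among all reads. Of the 8 X-linked testis arms, 7 reached 100 reads in testis, and all 7 were also at least 4-fold higher there than in uterus on both scales. The list had 0 reads in uterus, so 3 counts stood in place of 0.

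miR-184-3p was high in sperm, lower in testis and scarce in uterus. It stood at 37447 reads per 1000000 hairpin reads (RPM) in sperm (36851 to 38050), at 2925 in testis (2687 to 3179) and at 10.3 in uterus (8.43 to 12.4). Among all reads of each library its level was 960 per 1000000 in sperm (944 to 975), 23.4 in testis (21.5 to 25.4) and 6.80 in uterus (5.58 to 8.21). The order of the 3 libraries was the same on both scales, and no neighbouring pair of intervals overlapped.

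**Figure D1:**
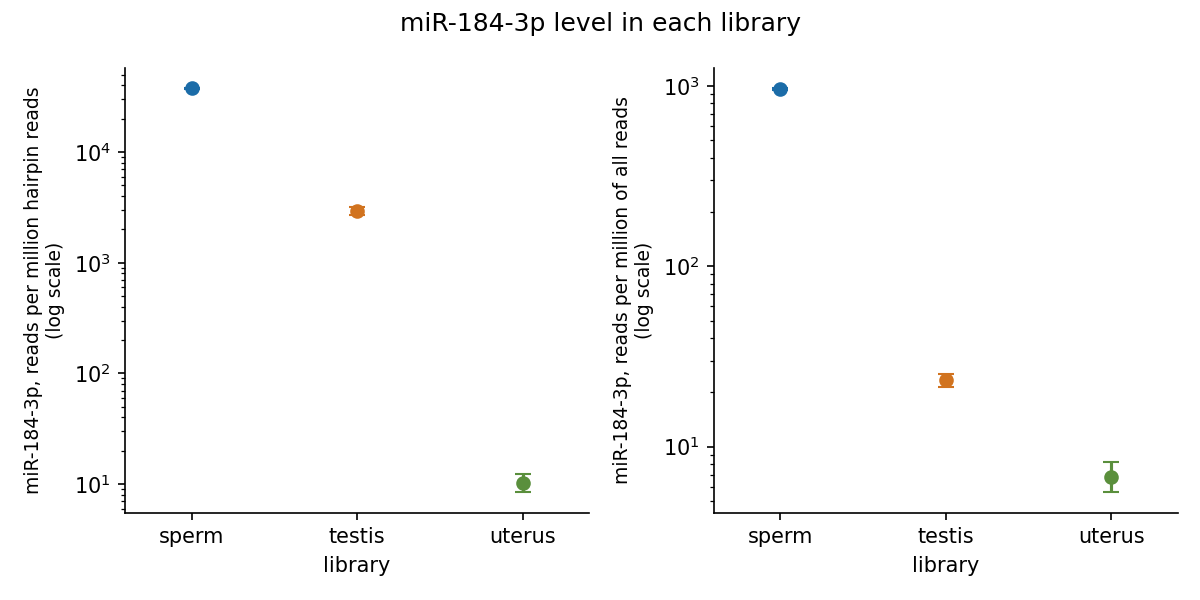
miR-184-3p in sperm, testis and uterus, on log axes, as reads per 1000000 microRNA hairpin reads (left) and per 1000000 of all reads (right); points are the single library of each source and bars are 95% Poisson intervals. Sperm is highest on both scales, at 37447 and 960, and uterus lowest, at 10.3 and 6.80.

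Among hairpin reads, sperm held 12.8 times the testis level (11.8 to 14.0) and 3644 times the uterus level (3016 to 4445), and testis held 285 times the uterus level (231 to 353). Among all reads the ratios were 41.1 (37.7 to 44.8), 141 (117 to 172) and 3.44 (2.79 to 4.26). The direction thus held on both scales, but its size for testis over uterus fell from far above to below 4-fold. Among arms that reached 100 reads in either library of a pair, 47 of 133 (35.3%) were at least 4-fold higher in sperm than in testis among hairpin reads and 29 (21.8%) in testis. For sperm and uterus these counts were 83 of 230 (36.1%) and 51 (22.2%), and for testis and uterus 59 of 232 (25.4%) and 31 (13.4%). Among all reads the balance against uterus turned. Sperm was then higher than testis for 65 arms (48.9%) and lower for 14 (10.5%), higher than uterus for 25 (10.9%) and lower for 162 (70.4%), and testis was higher than uterus for 25 (10.8%) and lower for 197 (84.9%). miR-184-3p was at least 4-fold higher in the first library of each pair among hairpin reads, and among all reads in both comparisons of sperm, and on either scale its ratios ranked 30th, 10th and 26th from the top. Many arms thus exceeded its ratio of sperm to testis. The median log2 ratio over the same arms was 0.22, 0.67 and 0.33 among hairpin reads, against 3.68, 11.83 and 8.15 for miR-184-3p, and 1.90, -4.03 and -6.04 among all reads, against 5.36, 7.14 and 1.78.

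Within each library the rank of miR-184-3p fell in the same order. In sperm it ranked 11th of 552 arms with a read and held 3.74% of the hairpin reads, between the 5p arm of Mir34c with 16786 reads and miR-148a-3p with 11459. In testis it ranked 30th of 477 and held 0.292%, between miR-1981-5p with 560 reads and miR-7210-5p with 534, from which 556 reads do not differ beyond counting error. In uterus it ranked 205th of 799, between miR-34b-5p with 118 reads and miR-674-3p with 107, which again lie within its counting interval.

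The 5p arm was not seen. All 3 libraries had 0 reads of it, which allows, for sperm, testis and uterus in turn, a share of the reads of the hairpin of up to 0.0199%, 0.540% and 2.78%, or up to 7.46, 15.8 and 0.285 RPM. As a share of the hairpin the limit is lowest in sperm, and as a level it is lowest in uterus. No read lay on the opposite strand of the hairpin, and no whole match was longer than 24 nt. An empty minor arm was not rare at these depths. Of 13 other hairpins with at least as many reads as Mir184 in sperm, 4 had 0 reads on their minor arm, as did 19 of 40 in testis and 24 of 211 in uterus, and the median share of the minor arm was 0.00542%, 0.0505% and 1.15%.

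The 5′ end was nearly uniform. Reads that began at base 45 of the hairpin, the first base of mature miR-184-3p, were 14999 of 15058 in sperm (99.6%, 99.5 to 99.7%), 553 of 556 in testis (99.5%, 98.4 to 99.9%) and 107 of 108 in uterus (99.1%, 94.9 to 99.98%). The intervals of the 3 libraries overlapped. Over all arms with at least 100 reads, the median share of the leading start was 99.4%, 99.2% and 99.1% in the same order, so miR-184-3p sat near the middle. The shifted starts are shown because each moves the seed, again in capitals, to one that no listed mouse microRNA has.
start 1 base upstream: tTGGACGGagaactgataagggt
start 1 base downstream: gGACGGAGaactgataagggt
Starts 1 base upstream had 33 sperm reads (0.219%), 2 testis reads and 1 uterus read, and starts 1 base downstream had 24 (0.159%), 1 and 0. A further 2 reads in sperm began 4 bases downstream. The testis and uterus counts are too few to compare with sperm.

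The 3′ end differed between sperm and the tissues. The forms that share the mature start are shown with the bases after position 19 in capitals, since the libraries differed in how far these bases were read.
20 nt: tggacggagaactgataagG
21 nt: tggacggagaactgataagGG
22 nt: tggacggagaactgataagGGT
23 nt: tggacggagaactgataagGGTA
The 22 nt mature form led in every library, with 10153 sperm reads (67.4%, 66.7 to 68.2%), 478 in testis (86.0%, 82.8 to 88.8%) and 87 in uterus (80.6%, 71.8 to 87.5%). The 21 nt form had 3178 reads in sperm (21.1%, 20.5 to 21.8%), 9 in testis (1.62%, 0.743 to 3.05%) and 4 in uterus (3.70%, 1.02 to 9.21%). The 20 nt form had 1193 sperm reads (7.92%), against 1 in testis (0.180%) and 1 in uterus (0.926%). Shorter ends were thus common in sperm and rare in both tissues. The 19 nt form had 210 reads in sperm and the 18 nt form 4, and neither was seen in testis or uterus.

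The longer ends ran the other way. The 23 nt form had 254 reads in sperm (1.69%, 1.49 to 1.91%), 64 in testis (11.5%, 8.98 to 14.5%) and 15 in uterus (13.9%, 7.99 to 21.9%). Reads of 24 nt from the mature start numbered 7, 1 and 0. Pooled, ends short of base 22, counted from the mature start, were 30.4% of the sperm reads (29.7 to 31.2%), against 1.80% for testis (0.866 to 3.28%) and 4.63% for uterus (1.52 to 10.5%). In each class (shorter than, equal to or longer than the mature form) the intervals of testis and uterus overlapped, while that of sperm lay apart from both. Mean length was 21.6 nt in sperm (SD over reads 0.726), 22.1 in testis (0.375) and 22.1 in uterus (0.462).

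**Figure D2:**
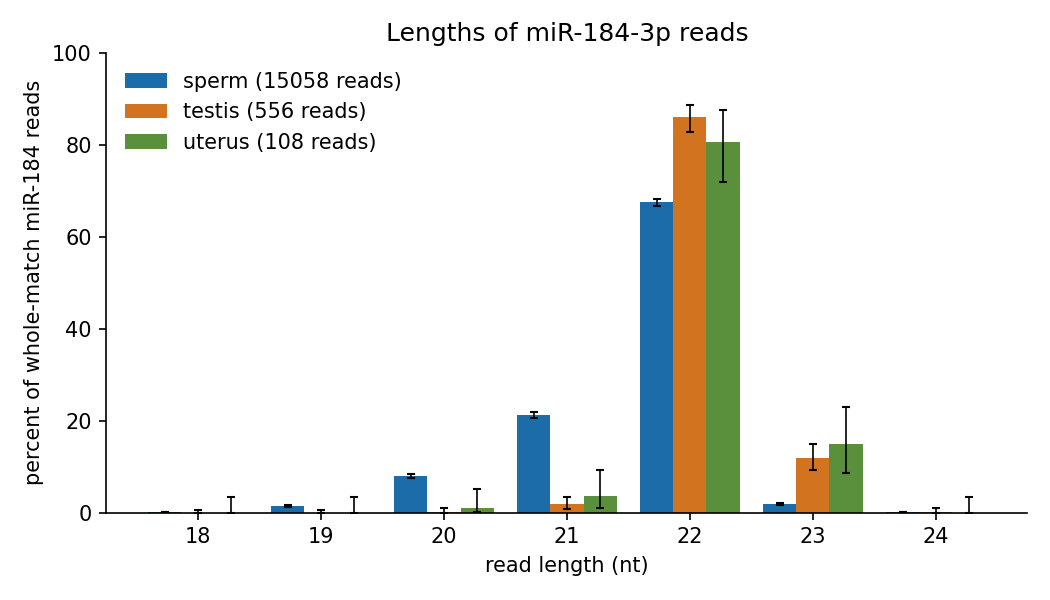
Lengths of whole-match miR-184-3p reads, as percent of 15058 (sperm), 556 (testis) and 108 (uterus) reads, with 95% Clopper-Pearson intervals. The sperm bars reach 21.2% at 21 nt and 7.95% at 20 nt, where testis has 1.80% and 0.180%, and at 23 nt sperm has 1.81% against 11.9% in testis and 14.8% in uterus.

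Many hairpin arms differed in the same direction between sperm and testis. Of 63 arms with at least 100 reads in both, 45 had a larger share of ends shorter than their leading form in sperm, with medians of 22.5% in sperm and 12.8% in testis and a median difference of 8.53 percentage points. The leading form of an arm was not always its most read form in a given library. For the 5p arm of Mir30d it held 8.90% of the sperm reads, with 90.8% shorter. For miR-184-3p it was the mature form, the most read in every library. For miR-184-3p the difference was 28.7 points, the 10th largest of the 63. In testis its share of short ends was among the lowest, 75th of 82 arms, while in sperm it ranked 39th of 114. Between sperm and uterus, 53 of 91 arms had more short ends in sperm, with a median difference of 4.35 points against 25.8 for miR-184-3p, the 15th largest. With 1 library a source, the source and the handling of its library cannot be told apart.

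A second change at the 3′ end came from reads that leave the hairpin sequence in their last bases. These reads matched at least 18 bases of the hairpin and ended in 1 to 3 bases that the hairpin does not have, so they lie outside the whole-match reads above. Sperm had 3618 of them, testis 388 and uterus 52, all on the 3p arm. Of whole-match and tailed reads together they were 19.4% in sperm (18.8 to 19.9%), 41.1% in testis (37.9 to 44.3%) and 32.5% in uterus (25.3 to 40.3%). Sperm was the lowest, and the intervals of testis and uterus overlapped. The median over all arms with at least 100 reads was 12.4% for sperm, 14.8% for testis and 17.0% for uterus, and miR-184-3p ranked 37th of 114, 10th of 82 and 40th of 207.

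Added T, which stands for U in the RNA, was the main kind as counted here. The A that follows the mature form in the hairpin was taken as hairpin. Tails of T alone stood on 9.39% of sperm miR-184 reads (8.97 to 9.81%), 28.3% of those from testis (25.4 to 31.3%) and 17.5% of those from uterus (12.0 to 24.3%). Tails of A alone were on 7.07% in sperm (6.71 to 7.45%), 9.64% in testis (7.83 to 11.7%) and 6.25% in uterus (3.04 to 11.2%). Counted so, the difference between sperm and testis lay mostly in T. This depends on taking the A after base 22 as hairpin. Reads from the mature start that hold that A were 10.1% in sperm and 27.9% in testis, so with it counted as added the difference would not lie mostly in T. Tails with a C or G were on 1.97%, 1.27% and 3.75%, and a lone base added after base 21 cannot be told from a misread of the last mature base.

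**Figure D3:**
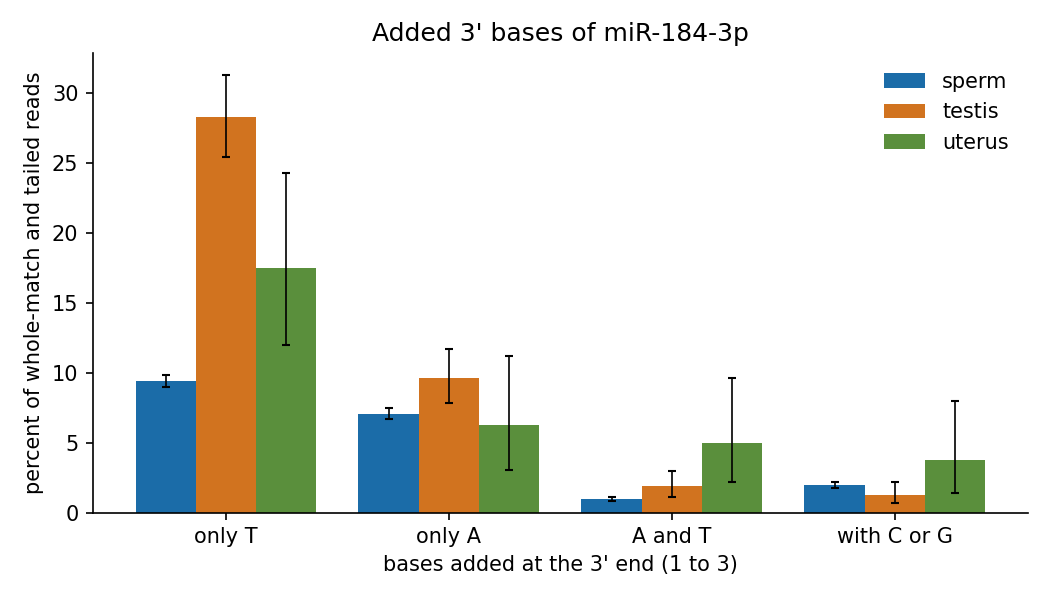
Percent of miR-184-3p reads (whole-match and tailed together) that end in 1 to 3 added bases, by the kind of added base, in sperm, testis and uterus, with 95% Clopper-Pearson intervals. The A that follows the mature form in the hairpin is counted as hairpin. Tails of T alone stand at 28.3% in testis, 17.5% in uterus and 9.39% in sperm, whereas tails of A alone lie between 6.25% and 9.64%.

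The leading tailed forms are shown with the added bases in capitals, because they show where the additions sit.
22 nt of hairpin and T: tggacggagaactgataagggtT
22 nt of hairpin and TT: tggacggagaactgataagggtTT
23 nt of hairpin and T: tggacggagaactgataagggtaT
23 nt of hairpin and A: tggacggagaactgataagggtaA
21 nt of hairpin and A: tggacggagaactgataagggA
The mature form with T had 508 sperm reads (2.72%), 94 testis reads (9.96%) and 11 uterus reads (6.88%), and with TT 237 (1.27%), 40 (4.24%) and 4. Both were at higher shares in testis than in sperm. The 23 nt form with T had 936 reads in sperm (5.01%, 4.70 to 5.33%), 119 in testis (12.6%, 10.6 to 14.9%) and 11 in uterus (6.88%, 3.48 to 12.0%). The 23 nt form with A had 611 (3.27%), 67 (7.10%) and 3 (1.88%). The 21 nt form with A did not share this order, with 423 reads in sperm (2.26%, 2.06 to 2.49%), 11 in testis (1.17%, 0.583 to 2.08%) and 5 in uterus (3.13%, 1.02 to 7.14%).

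In the hairpin the base that follows the mature form, base 23 counted from the mature start, is itself an A, so a read that ends there may hold a base of the hairpin or an added A, and sequence cannot tell them apart. In sperm, 1610 of the 1864 reads that reached base 23 went on to an added base (86.4%, 84.7 to 87.9%), as did 197 of 261 in testis (75.5%, 69.8 to 80.6%) and 16 of 31 in uterus (51.6%, 33.1 to 69.8%). Of the reads that stopped matching at base 22, only 7.97% in sperm (7.47 to 8.49%), 24.2% in testis (20.95 to 27.8%) and 20.2% in uterus (13.1 to 28.9%) carried a tail. Among all reads that ran past base 22, the next base was A in 67.8% for sperm, 63.1% for testis and 59.3% for uterus, and T in 31.8%, 36.7% and 37.0%. C was next in 0 reads of every library. A thus led T as the base after position 22 in all 3 libraries.

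Counting whole-match and tailed reads together left the difference in short ends in place, as far as sequence can show. Base 22 is itself a T, so an end at base 21 with an added T reads as the mature form. Such ends are counted here as neither short nor tailed, and their number in each library is not known. Reads whose hairpin part ended before base 22 were 5696 of 18599 in sperm (30.6%, 30.0 to 31.3%), 47 of 941 in testis (4.99%, 3.69 to 6.59%) and 18 of 159 in uterus (11.3%, 6.85 to 17.3%). In testis and uterus most ends at base 21 carried a tail, 35 of 44 (79.5%) and 11 of 15 (73.3%), against 1017 of 4195 in sperm (24.2%, 22.95 to 25.6%). Short ends without a tail, 4585 reads from the mature start in sperm, thus came to 10 in testis and 5 in uterus.

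**Figure D4:**
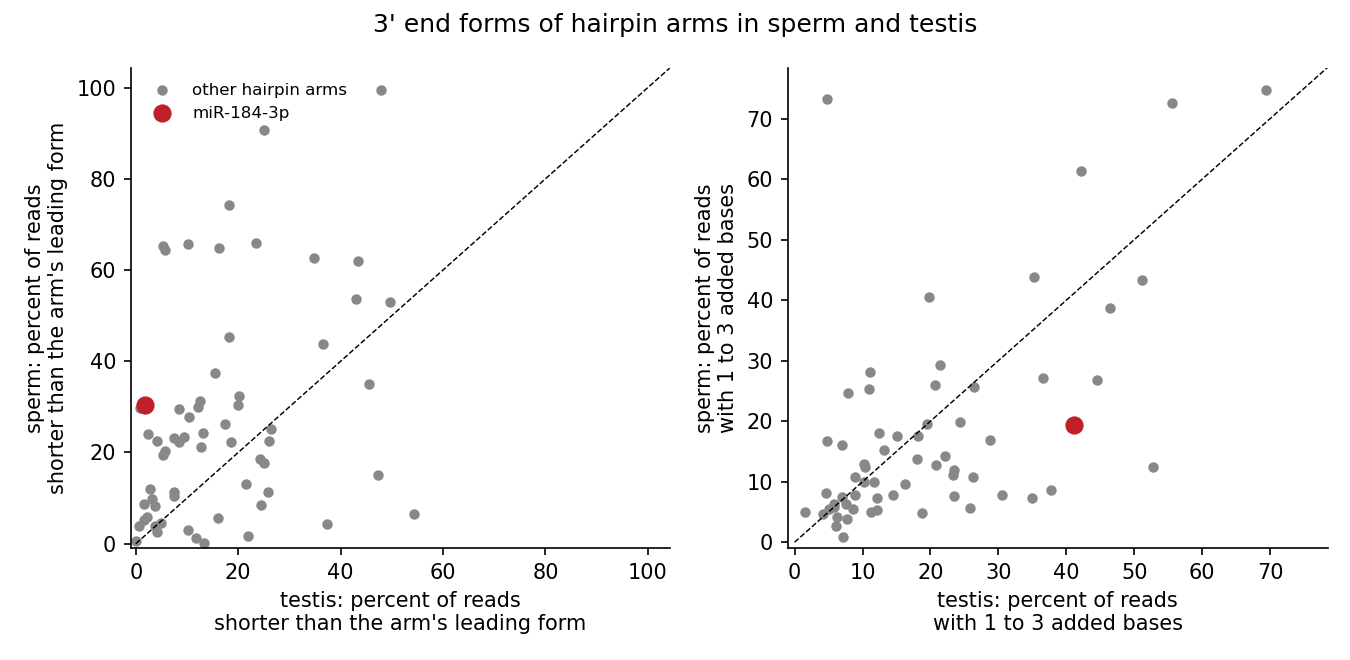
Hairpin arms with at least 100 reads in both sperm and testis (63 arms, gray, with miR-184-3p in red): percent of reads shorter than the arm's leading form (left) and percent with 1 to 3 added bases (right), testis on the horizontal and sperm on the vertical axis, with a dashed line of equal shares. miR-184-3p lies above the line on the left (1.80% in testis, 30.4% in sperm) and below it on the right (41.1% and 19.4%).

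For tails too, other arms were split. Of the 63 arms, 25 had a larger tailed share in sperm than in testis and the median difference of sperm minus testis was -1.23 percentage points. The difference for miR-184-3p was -21.7 points, which ranked 59th of the 63 from the highest.

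Substitutions inside the mature form were rare. In sperm, 216 reads differed from the 22 nt form by 1 base before the last (2.08%, 1.82 to 2.38%), in testis 4 (0.830%, 0.227 to 2.11%) and in uterus 5 (5.43%, 1.79 to 12.2%). The median over arms with at least 400 reads of their leading sequence was 2.32%, 1.73% and 1.66% in the same order. The values in sperm and testis thus lay below the middle, and that in uterus, on 5 reads, lay above it. The most frequent in sperm, with positions counted from 1 at the 5′ end, were T16A with 28 reads (0.270%), T16G with 20 (0.193%) and A11G with 19 (0.183%). The intervals of A11G (0.110 to 0.286%) and of both changes at position 16 overlapped, so their order is not settled. A-to-G reads can come from RNA editing, which was not tested.

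The 5 arms whose levels over the 3 libraries were most like those of miR-184-3p come from the X chromosome or from the Mir34b and Mir34c hairpins. The share of X-linked arms among all ranked arms was not counted, so no weight is put on that origin. Likeness was the distance between log2 RPM profiles (1 added to each RPM), each centred on its own mean, over 244 arms with at least 100 reads in a library. The nearest was miR-878-5p, from the X chromosome, with 1105 sperm reads, 53 testis reads and 0 uterus reads, at a distance of 0.28. It was followed by miR-34b-3p (784, 79 and 12 reads, distance 1.39) and miR-34c-3p (553, 37 and 8 reads, 1.48). The X-linked miR-465a-5p (1431, 209 and 0 reads) and miR-741-3p (1231, 194 and 0 reads) came next, at 1.66 each. The 3 X-linked arms had 0 reads in uterus, so the RPM of 1 that was added sets their uterus value and with it their distance. With 3 counts in place of 0, their log2 ratios of testis over uterus were at least 9.93, 11.9 and 11.8 in the order named. That of miR-184-3p was 8.15. With 3 libraries such a profile has few degrees of freedom, and the distance is a description.

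**Figure D5:**
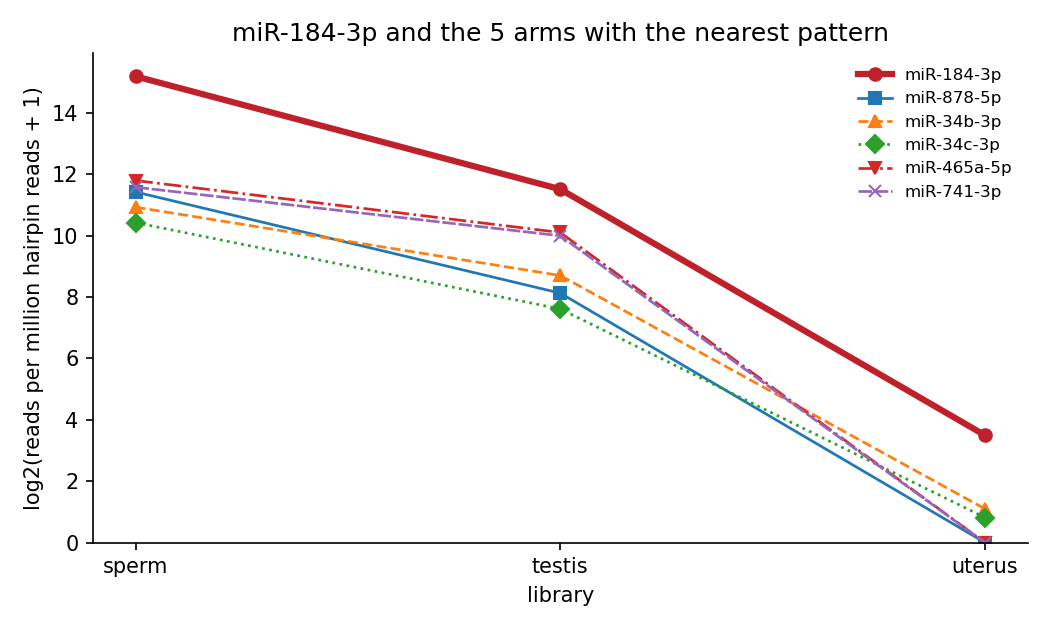
Levels of miR-184-3p and of the 5 arms nearest to it in profile, as log2(reads per 1000000 hairpin reads + 1) in sperm, testis and uterus; lines join the points of an arm. miR-184-3p runs from 37447 RPM in sperm to 10.3 in uterus, above the 5 other arms in each library.

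The opposite arms of the same Mir34 hairpins were lower in sperm than in testis. miR-34b-5p had 18 reads in sperm against 1581 in testis, and the 5p arm of Mir34c had 16786 and 83771, with log2 ratios of sperm over testis among hairpin reads of -7.54 and -3.40. Neither miR-449a-5p (28 reads in sperm, 804 in testis) nor miR-202-5p (2 and 2627) followed miR-184-3p either, and testis exceeded sperm at least 4-fold for all 4 listed germ cell arms among hairpin reads (21.8% of all arms did so). Among all reads it did so for 3 of the 4 (10.5% of all arms), and miR-34c-5p was 3.29-fold higher in testis. The direction of the X-linked list turned with the scale. Among hairpin reads 0 of its 7 arms of at least 100 reads were 4-fold apart between sperm and testis, and their median log2 ratio was -0.53. Among all reads miR-465a-5p, miR-741-3p and miR-743a-3p were at least 4-fold higher in sperm (48.9% of all arms were), and the median was 1.15.

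Epithelial, leukocyte and endothelial markers were also higher in sperm than in testis, on both scales. Among hairpin reads sperm had at least 4 times the testis level for 6 of the 7 epithelial arms (35.3% of all arms) and testis for 0 of them, with a summed level of 98315 RPM (sperm), 468 (testis) and 656 (uterus), and with miR-141-3p and miR-205-5p at 0 in testis. Alone, miR-200c-3p had 34591 sperm reads, 3 testis reads and 1053 uterus reads. The 5 leukocyte arms summed to 3196 RPM, 158 and 85.4 in the same order, none at 0, and to 81.9, 1.26 and 56.6 among all reads. In testis each had only 2 to 14 reads, and 2 of the 5 reached 100 reads in sperm or testis. The endothelial list was miR-126a-3p alone, at 353, 5.26 and 13.9 RPM, or 9.05, 0.0420 and 9.20 among all reads. Its reads were 142, 1 and 146, so its testis level rests on 1 read. The 5 smooth muscle and stroma arms summed to 52659, 21295 and 115002 among hairpin reads, but 45905 of the sperm sum was miR-143-3p. Among all reads they summed to 1350, 170 and 76129. Of the 4 of these arms with at least 100 reads in sperm or testis, miR-143-3p alone was 4-fold apart, and their median log2 ratio of sperm over testis was -0.64 among hairpin reads and 1.04 among all reads. The 2 erythroid arms summed to 74.6, 231 and 116 among hairpin reads, and to 1.91, 1.85 and 76.8 among all reads. The part of such cells in the level of miR-184-3p in sperm was not tested. In bulk RNA, more cells of a type and more of the RNA per cell cannot be told apart.

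The microRNAs known from the same eye tissues as miR-184 were, in sum, below it in sperm and testis and above it in uterus. miR-204-5p, a lens and retinal pigment epithelium microRNA, had 9 sperm reads, 19 testis reads and 83 uterus reads. miR-205-5p, a microRNA of stratified epithelia such as that of the cornea, had 123, 0 and 16, with a log2 ratio among hairpin reads of at least 4.28 for sperm over testis and of 7.65 for sperm over uterus, and miR-31-5p had 79, 15 and 1233. Their summed level was 525, 179 and 127 RPM in sperm, testis and uterus, against 37447, 2925 and 10.3 for miR-184-3p alone. Among all reads the sum was 13.4, 1.43 and 83.9, thus highest in uterus, against 960, 23.4 and 6.80 for miR-184-3p. The 3 brain arms (miR-124-3p, miR-9-5p and miR-128-3p) summed to 502, 1862 and 199 RPM among hairpin reads, highest in testis. Among all reads they summed to 12.9, 14.9 and 132, highest in uterus. On neither scale was the order of the sum that of miR-184-3p. The largest part of each sum was miR-128-3p (259, 1373 and 198 RPM, or 6.63, 11.0 and 131 among all reads). It was highest in testis among hairpin reads and in uterus among all reads. On both scales miR-124-3p was highest in testis (37.3, 395 and 0.476 RPM, or 0.956, 3.15 and 0.315 among all reads). In contrast, miR-9-5p had the order of miR-184-3p on both scales (206, 94.7 and 0.761 RPM, on 83, 18 and 8 reads). Among all reads its levels were 5.29, 0.757 and 0.504.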

How the data were processed

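The authors deposited 1 table per library that lists distinct sequences with whole-number read counts, not normalized as far as the values show. Reads were 18 to 44 nt long, and the submitters' processing notes name the build mm9. The sources used here do not give trimming, filters or tools. Lines without a sequence were dropped. Sequences were matched to hairpins of GENCODE M21 (GRCm38). Genes of type miRNA not named Mir were left out after 1 tRNA-like gene proved abundant in sperm. Matching was done without a genome and with no conversion from mm9. A read belonged to the arm that held its middle, and arms with the same leading sequence were merged, giving 936. Levels were divided by hairpin reads of 18 to 26 nt. Intervals were exact (Poisson, Clopper-Pearson, conditional binomial). A count of 0 was taken as up to 3 counts. Depth was 15690722, 23783785 and 15876066 reads.

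Named arms were both arms of Mir184, the 5 nearest profiles, the rank neighbours in each library and members of 9 marker lists. Members and lists were chosen with earlier results of these data known. Of the marker arms, 7 lacked a mature entry in the sequence table and were taken as the named arm of the GENCODE hairpin. Alternatives changed 1 choice at a time and included TMM factors of edgeR 4.0.16 and DESeq2 1.42.0 size factors. Matching and intervals were tested on simulated data. Python 3.11.15, R 4.3.3 and RNAfold 2.7.2 were used.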

Additional observations from a re-analysis of the deposited data

How the results depend on the processing

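Of 110 alternatives 61 stayed within the counting interval or within 1.5 times the main count, and none turned a ratio of miR-184-3p. For miR-184-3p, log2 ratios of sperm over testis, sperm over uterus and testis over uterus (3.68, 11.83 and 8.15) became 5.36, 7.14 and 1.78 per library total, 4.23, 9.60 and 5.37 with TMM factors, and, for those with uterus, 10.44 and 6.79 with DESeq2 size factors. With every GENCODE gene of type miRNA in the denominator, chosen after seeing the data, they were 3.58, 11.73 and 8.15. With all read lengths, sperm over testis was 4.04 and testis over uterus 7.78, and with a match of only the first 18 bases sperm over testis was 3.19. Counts of arms at least 4-fold apart moved more, and their balance turned towards uterus per all reads, with TMM and with DESeq2, and towards testis over sperm with no minimum. Higher in sperm than testis were 47 arms, or 71 with a minimum of 20 reads and 81 with none, and higher in testis 29, or 59, 91 and, with all reads, 14. Higher in sperm than uterus were 83, or 149 and 328 with those minimums, 25 with all reads, 58 with DESeq2 and 44 with TMM, and higher in uterus 51, or 162 with all reads, 86 with DESeq2 and 106 with TMM. Higher in testis than uterus were 59, or 141, 332, 25 with all reads, 41 with DESeq2 and 31 with TMM, and higher in uterus 31, or 197 with all reads, 82 with DESeq2 and 134 with TMM. Per all reads, added after seeing the data, the median log2 ratio of sperm over testis turned to 1.15 for the X-linked list and 1.04 for the smooth muscle and stroma list, and rose without a turn for the other lists that have one. The cause was not tested.

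In sperm the 22 nt form was 68.4% of reads of 20 to 24 nt. Counted over distinct sequences, the mature start held 46.7% (sperm), 71.4% (testis) and 80.0% (uterus), and the 22 nt form 6.67%, 14.3% and 20.0%, so the order of the libraries in the first share turned, by construction, since each form then counts once. Without single-read sequences the mature start held 100% in uterus, which also turned that order. With bases past base 22 counted as added, chosen after seeing the data, tailed shares were 20.8%, 48.0% and 41.9%. No paired analysis was possible because each source had 1 library. The 108 reads in uterus limit every statement on its forms.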
